A study of Mus musculus with 6 samples.

Results

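The 10 genes described here are 4 receptors (Notch1, Notch2, Notch3, Notch4), 3 ligands (Jag1, Jag2, Dll4) and 3 target genes (Hes1, Hey1, Heyl) of the Notch pathway, taken by gene symbol from the 26329 genes of the deposited table. All 10 had an entry, and all 10 were among the 12922 genes tested, those with a mean of at least 1 FPKM over the 6 libraries. FPKM are read fragments corrected for gene length and library depth. Comparing such levels between genes rests on the gene lengths that were used. The libraries were made from cultured mouse ovaries, 3 cultured with DMSO, the solvent (Control), and 3 cultured with ISRIB in DMSO. ISRIB is a small molecule that acts on the translation initiation factor eIF2B and counters the integrated stress response. The study's question was whether damping this response activates primordial follicles. The dose, the culture time and the age of the animals are not given in the labels used here. Nothing there tells whether replicates are separate animals or cultures, so the p-values describe the spread of these libraries, which may be technical. The genes were chosen by a difference between ISRIB and Control that the same FPKM values had shown, and that difference is therefore given as a description. No p-value is given for a single member, and counts of members called stand only beside the share of all genes.

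Notch signalling passes between touching cells. A ligand of the Jagged or Delta family on the sending cell binds a Notch receptor on its neighbour, the protease ADAM10 and then gamma-secretase cut the receptor, and the freed intracellular part joins the DNA-binding protein RBPJ and a Mastermind co-activator to switch on Hes and Hey genes, which code for transcriptional repressors. In the newborn mouse ovary the pathway is known for JAG1 on germ cells acting on NOTCH2 of pregranulosa cells while germ cell cysts break down and primordial follicles form. In blood vessels, DLL4, NOTCH1 and NOTCH4 act between endothelial cells, and NOTCH3 is the receptor of pericytes and vascular smooth muscle.

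All 10 genes had a lower mean in ISRIB than in Control, by amounts that ran from Notch2, at 77.9% of its Control level, to Hes1, at 97.6%. Notch1 and Notch2 stood apart from the other members, at 79.8% and 77.9% of Control with small spread in both groups. The 3 ISRIB libraries lay wholly below the 3 Control libraries for 4 members, Notch1, Notch2, Notch4 and Dll4, and such a gap was found in this direction for 12% of all genes tested and in either direction for 22.8%. The median difference of the 10 members was −0.15 on the log2(FPKM + 0.5) scale, the scale of every log2 difference below, against 0.01 over all genes tested, of which 48.2% were lower in ISRIB. By limma with Benjamini-Hochberg adjustment (threshold 0.05), 0 members were called, as were 0 of all 12922 genes (0%). At an unadjusted p under 0.05 there were 4 members, all lower, against 7.73% of all genes in that direction and 16.4% in either. With limma's voom on reads worked back from the FPKM, 2 members were called, Notch1 and Notch2, where 0.929% of all genes were. With the replicate number as a block, 0 members were called and 0.0851% of all genes were. Because this contrast chose the genes, nothing is read from these counts. The number without overlap was 8 without Control replicate 1 and 7 without ISRIB replicate 2. Leaving out a library can only keep or raise this number, and the share of all genes in those fits is not given, so nothing is read from the rise.

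The stretches of DNA before the start sites of the 4 genes whose groups did not overlap are shown first, since they let the promoters of the receptors with the largest differences be compared. They come from RefSeq (GRCm38.p6, the assembly of mm10), which had entries for 7 of the 10 members. No entry was found for Hes1, Hey1 and Heyl. Each begins 250 bases before the transcript start used in the RefSeq promoter table, which for Notch4 (34564295) differs from the gene start given below, and ends before the first base that GENCODE M21 gives as an exon of the gene. The Dll4 stretch holds exon bases of another gene, the noncoding Gm14207 on the opposite strand. Capitals mark every match to GGGCGG (the GC box bound by Sp1-type factors) or CACGNG (the box bound by Hes and Hey repressors), on either strand.
Notch1, chr2:26503825-26504072, minus strand: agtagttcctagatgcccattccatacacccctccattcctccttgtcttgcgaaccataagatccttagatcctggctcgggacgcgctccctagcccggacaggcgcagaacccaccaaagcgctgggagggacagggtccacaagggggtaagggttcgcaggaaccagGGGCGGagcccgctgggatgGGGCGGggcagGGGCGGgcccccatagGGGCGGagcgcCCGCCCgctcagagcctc
Notch2, chr3:98013288-98013526, plus strand: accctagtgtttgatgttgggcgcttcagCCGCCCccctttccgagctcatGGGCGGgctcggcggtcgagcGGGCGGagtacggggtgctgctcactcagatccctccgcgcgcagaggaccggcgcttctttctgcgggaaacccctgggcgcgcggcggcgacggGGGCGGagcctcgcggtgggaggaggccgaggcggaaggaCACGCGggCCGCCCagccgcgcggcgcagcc
Notch4, chr17:34564045-34564267, plus strand: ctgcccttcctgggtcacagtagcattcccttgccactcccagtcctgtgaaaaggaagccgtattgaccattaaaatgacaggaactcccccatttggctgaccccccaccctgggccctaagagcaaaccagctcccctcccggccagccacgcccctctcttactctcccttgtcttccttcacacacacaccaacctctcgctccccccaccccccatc
Dll4, chr2:119325534-119325783, plus strand: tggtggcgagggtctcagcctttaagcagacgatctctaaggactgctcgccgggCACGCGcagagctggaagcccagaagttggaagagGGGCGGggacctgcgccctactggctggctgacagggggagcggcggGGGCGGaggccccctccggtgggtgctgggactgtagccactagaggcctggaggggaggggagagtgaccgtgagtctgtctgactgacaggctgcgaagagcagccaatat

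The 4 sequences fall into different kinds. The Notch1 and Notch2 stretches each held 5 GC boxes, those of Notch1 packed between 78 and 15 bases before the start and those of Notch2 spread from 221 to 29 bases before it. The Dll4 stretch held 2 and that of Notch4 0, and 32.7% of the 32851 promoters in the RefSeq table held at least 1 in the same 250 bases. Of these 4, Notch4 was also nearest to the median of all promoters (52.4% G and C and 6 CpG pairs). Over its full 250 bases it had 58.4% and 4, where Notch2 had 72.0% and 34, Notch1 66.0% and 16 and Dll4 65.6% and 14. Of the members not printed, Jag2 had 54 CpG pairs and 5 GC boxes, Notch3 4 GC boxes and Jag1 0. Jag1 had 57.2% G and C, less than Notch4, and 20 CpG pairs. The core sequence bound by RBPJ, TGGGAA, was searched on both strands and occurred in 0 of the 7 windows, against 21.6% of all promoters. The CACGNG box occurred once each in Notch2, Notch3 and Dll4 and at 2 places in Jag1 (23.5% of all promoters held it), and the TATA box TATAAA in 0 of the 7 (12.4% of all). No match overlapped a match to another motif in these windows, and 2 of the GC boxes of Jag2 overlapped each other. A match is a description of the letters and not a bound site, and the absence of one says only that the letters are not in this window.

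Levels ran from Hes1 at the top to Notch3 at the bottom. In Control the order of mean FPKM was Hes1 (45.5), Heyl (36.1), Jag2 (35.2), Hey1 (23.9), Notch2 (23.4), Dll4 (22.7), Notch1 (10.9), Notch4 (10.3), Jag1 (7.20) and Notch3 (6.38). Heyl and Jag2, the trio of Hey1, Notch2 and Dll4, Notch1 and Notch4, and Jag1 and Notch3 were neighbours whose replicate ranges overlapped, and the remaining neighbours were apart. In ISRIB the order differed in that Dll4 stood above Notch2 and Notch4 above Notch1, both pairs with overlapping ranges. Behind each of these values stood 1692 to 9523 reads in a library, a counting error of 2.43% to 1.02%, while the SD between replicates was 1.02% to 12.3% of the mean.

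**Figure D1:**
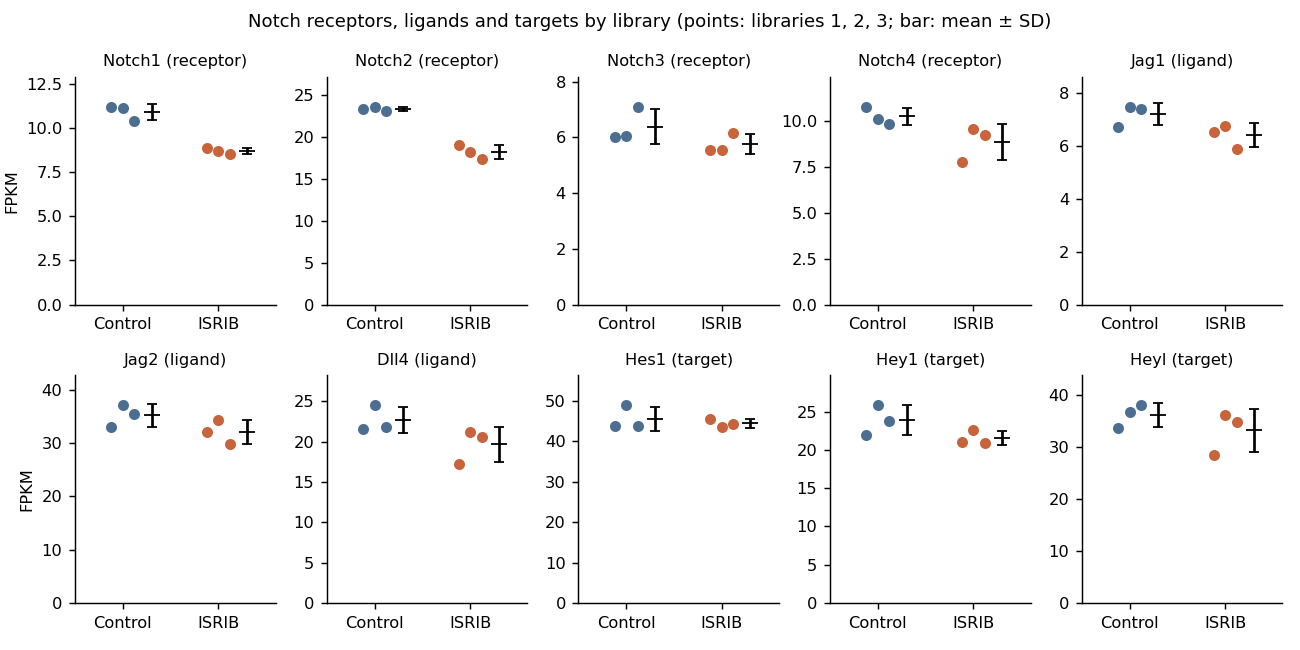
FPKM of each Notch gene in the 3 Control and 3 ISRIB libraries (points, replicates 1 to 3 from left to right) with the group mean ± SD; every vertical axis starts at 0. Notch1 and Notch2 show a gap between the groups, Notch4 and Dll4 a narrow gap with ISRIB replicate 1 lowest, and Hes1 shows no gap.

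Among the receptors, Notch2 (chromosome 3, 98013538 to 98150367, plus strand, GRCm38) was the most abundant. Its FPKM was 23.33, 23.60 and 23.13 in Control replicates 1 to 3 and 19.02, 18.23 and 17.35 in ISRIB replicates 1 to 3. The groups did not overlap, and the gap between the lowest Control and the highest ISRIB library was several times the spread within Control. The means were 23.4 ± 0.238 and 18.2 ± 0.835 (SD, n = 3 each), a log2 difference of −0.35 (SE 0.0494).

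Notch1 (chromosome 2, 26457902 to 26503822, minus strand) ran in step with Notch2 at a lower level. It measured 11.20, 11.14 and 10.37 FPKM in Control and 8.88, 8.68 and 8.54 in ISRIB, again with no overlap. Its means were 10.9 ± 0.464 and 8.70 ± 0.173 (n = 3 each) and its log2 difference −0.31 (SE 0.0562). The ratio of Notch2 to Notch1 within a library was 2.08, 2.12 and 2.23 in Control and 2.14, 2.10 and 2.03 in ISRIB, so the proportion of the 2 receptors overlapped between the groups. Over the 6 libraries their log2 levels had a Pearson r of 0.977 and a Spearman rho of 0.943, which includes the group difference both share. The deviations from the group means had an r of 0.556.

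Notch4 (chromosome 17, 34564286 to 34588543, plus strand), a receptor found mainly on endothelium, had 10.80, 10.16 and 9.88 FPKM in Control and 7.76, 9.61 and 9.26 in ISRIB. ISRIB replicate 1 was far below the rest, and the other ISRIB libraries lay just under the lowest Control library. The log2 difference was −0.21 (SE 0.0849), and −0.12 without ISRIB replicate 1. Notch3 (chromosome 17, 32120820 to 32166896, minus strand), the receptor of mural cells, had 6.004, 6.041 and 7.097 FPKM in Control and 5.56, 5.55 and 6.17 in ISRIB. ISRIB replicate 3 exceeded both lower Control libraries, so the groups overlapped. Its log2 difference of −0.13 (SE 0.0839) was −0.06 without Control replicate 3, the highest library.

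The ligands differed less than Notch1 and Notch2. Dll4 (chromosome 2, 119325784 to 119335666, plus strand), the Delta-type ligand of sprouting and arterial endothelium, had 21.61, 24.54 and 21.86 FPKM in Control and 17.21, 21.22 and 20.63 in ISRIB. The groups did not overlap, but the highest ISRIB and the lowest Control library were close, and ISRIB replicate 1 was the lowest of all, as for Notch4. The log2 difference was −0.20 (SE 0.0873), and −0.11 without that library. Notch4 and Dll4 were each other's closest member over the 6 libraries (Pearson r 0.863, Spearman rho 0.829, n = 6, and r 0.732 for deviations from the group means).

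Jag1 and Jag2, the Jagged-type ligands, overlapped between the groups and followed each other from library to library. Jag1 (chromosome 2, 137081451 to 137116520, minus strand) had 6.73, 7.48 and 7.39 FPKM in Control and 6.55, 6.77 and 5.89 in ISRIB, a log2 difference of −0.16 (SE 0.0751). Jag2 (chromosome 12, 112907803 to 112929812, minus strand) had 32.99, 37.15 and 35.53 FPKM in Control and 32.12, 34.43 and 29.90 in ISRIB, a log2 difference of −0.13 (SE 0.0659). In both, ISRIB replicate 2 lay within the Control range and ISRIB replicate 3 was lowest, and without that library the differences were −0.10 and −0.08. The ratio of Jag2 to Jag1 was 4.81 to 4.96 in Control and 4.91 to 5.08 in ISRIB. Their Pearson r over the 6 libraries was 0.973 and their Spearman rho 1, with an r of 0.962 for the deviations from the group means.

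The target genes had no member without overlap. Hes1 (chromosome 16, 30065357 to 30067796), a repressor of differentiation genes and the most abundant of the 10, had 43.82, 48.95 and 43.74 FPKM in Control and 45.60, 43.46 and 44.24 in ISRIB. Control replicate 2 was high and the other 5 libraries were alike. The log2 difference was −0.03 (SE 0.0544), and 0.02 without Control replicate 2, the only one of the 190 member values over all alternatives that was above 0. Hey1 (chromosome 3, 8663359 to 8667038), a repressor prominent in developing vessels, had 21.90, 25.84 and 23.82 FPKM in Control and 21.08, 22.53 and 20.88 in ISRIB. Only ISRIB replicate 2 lay above the lowest Control library, and the log2 difference was −0.14 (SE 0.0672), or −0.09 without Control replicate 2. Heyl (chromosome 4, 123233556 to 123249870), known from smooth muscle and pericytes, had 33.55, 36.68 and 37.97 FPKM in Control and 28.46, 36.08 and 34.81 in ISRIB. Its difference of −0.13 (SE 0.0913) came largely from ISRIB replicate 1, without which it was −0.02.

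**Figure D2:**
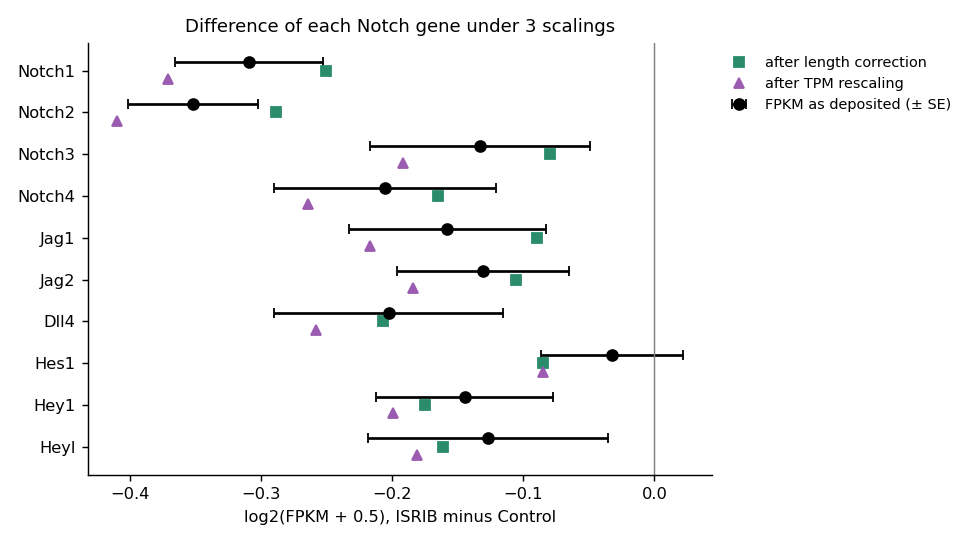
Log2(FPKM + 0.5) difference, ISRIB minus Control, of each Notch gene with the deposited FPKM (circles, ± SE of the limma fit over 3 against 3 libraries), after removal of the trend with gene length (squares) and after rescaling to TPM (triangles). All points lie below 0; TPM rescaling moves every gene further down, and the length correction brings Notch1 and Notch2 to −0.25 and −0.29 and takes Hes1 from −0.03 to −0.09.

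Scaling and gene length bear on these sizes. The gene length implied by the FPKM, which need not be that of the transcripts present, was long for the receptors and Jagged ligands. It was 9605 bases for Notch1, 10634 for Notch2, 8460 for Notch3, 6713 for Notch4, 11860 for Jag1 and 5242 for Jag2, against a median of 3548 over the genes tested. For Dll4 (3493 bases), Hey1 (2437), Heyl (2294) and Hes1 (1752) it was shorter. Over all genes tested the log2 difference went down with length (Spearman rho −0.361 across 12922 genes, which are not independent replicates). Genes of 5000 bases or more, a limit chosen after the values were seen, had a median difference of −0.05, and for 23.6% of them ISRIB lay wholly below Control. Once a loess trend on length had been taken out of every library, the 10 members had a median of −0.16, with Notch2 at −0.29, Notch1 at −0.25, Dll4 at −0.21 and Hey1 at −0.17. Jag1, the member with the longest implied length, went from −0.16 to −0.09, and Notch3 from −0.13 to −0.08. Rescaling to TPM shifted the median of all genes to −0.05 and that of the members to −0.21, and 8 members then had no overlap, where 21.0% of all genes lay wholly below Control. In voom with the length correction, an alternative chosen after seeing the data, 1 member was called where 0.178% of all genes were, and nothing is read from that count.

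**Figure D3:**
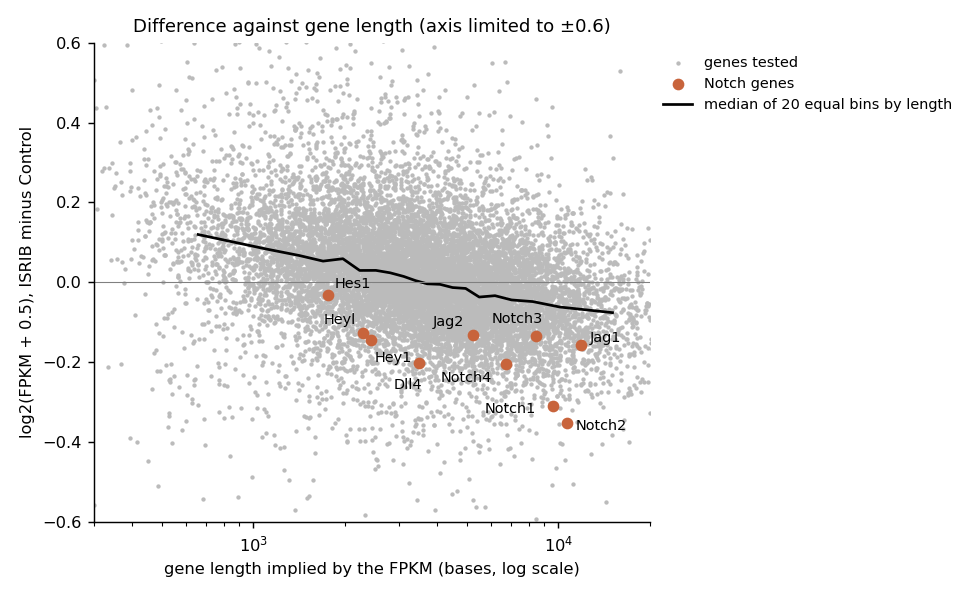
Log2(FPKM + 0.5) difference, ISRIB minus Control, against the gene length implied by the FPKM in bases (log axis) for the genes tested (grey), with the median in 20 bins of equal gene number (line) and the 10 Notch genes (coloured). The line goes down with length, all 10 Notch genes lie below it, and Notch1 and Notch2 lie farthest from 0.

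By library, the members were highest in Control replicate 2, where 6 of the 10 had their maximum, and lowest in ISRIB replicates 3 and 1, which held 5 and 3 of the minima. Control replicate 1 and ISRIB replicate 2 lay near the middle, with 4 members each above their own mean over the 6 libraries. The mean of the members' standardized log2 values was 0.17, 1.05 and 0.64 in Control and −0.92, −0.26 and −0.68 in ISRIB. The genes outside the pathway whose log2 values followed this mean most closely were Rabgef1 (Pearson r 0.995), Vps53 (0.990), Trappc12 (0.990), Tm7sf3 (0.986) and Cdk17 (0.983), each with a Spearman rho of 1 over the 6 libraries. With 6 libraries and 12922 genes, such high values describe these libraries only.

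**Figure D4:**
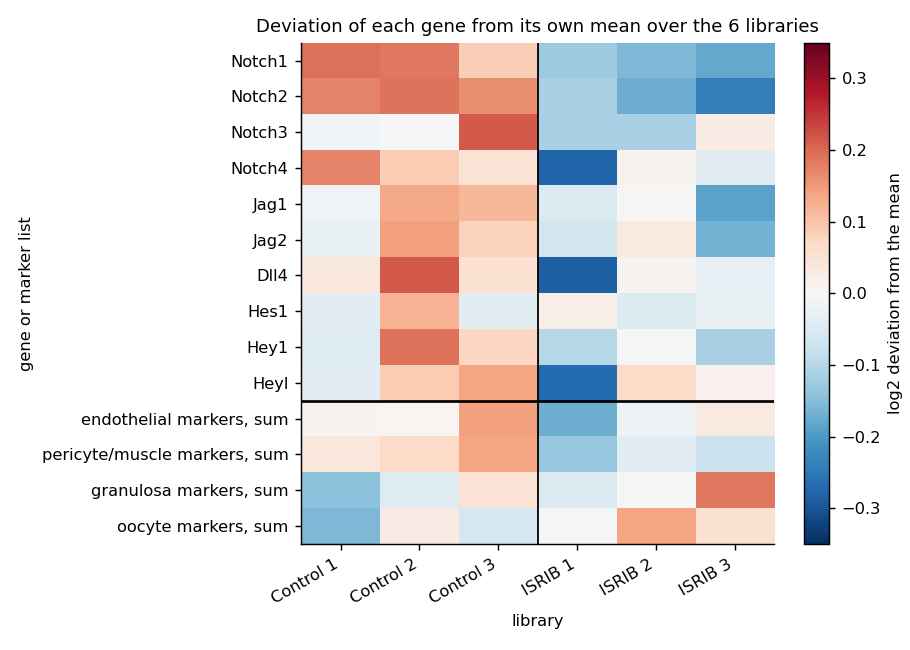
Log2 deviation of each Notch gene (upper 10 rows) and of the summed FPKM of 4 marker lists (lower rows) from its own mean over the 6 libraries (columns, Control left and ISRIB right). Notch1 and Notch2 are above their mean in all Control and below it in all ISRIB libraries, while Notch4, Dll4 and Heyl are lowest in ISRIB replicate 1, the library with the lowest endothelial sum.

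In whole ovary, fewer cells of a type and less RNA per cell cannot be told apart. The marker sums of endothelium and of pericytes with smooth muscle were lower on average in ISRIB, as the Notch genes were. The smooth muscle genes named below were higher. The summed FPKM of the 19 endothelial markers was 344.1 to 377.9 in Control and 304.0 to 349.6 in ISRIB, with the minimum in ISRIB replicate 1, the library in which Notch4, Dll4 and Heyl were lowest. ISRIB replicate 3, with 5 of the Notch minima, had an endothelial sum of 349.6. Control replicate 2, with 6 of the Notch maxima, had a sum of 344.1, close to the 344.6 of Control replicate 1. What these library orders mean for the Notch values was not tested. The sum is weighted to its most abundant gene, Sox18, at 53.03, 59.65 and 66.37 FPKM in Control and 57.31, 59.11 and 68.40 in ISRIB. Of the 17 endothelial markers tested, 15 were lower and 2 higher, where 48.2% of all genes were lower. In 6, every ISRIB library, replicate 3 included, lay below Control, against 12% of all genes wholly below. Named after their values were seen, they were Pecam1, Cdh5, Kdr, Eng, Emcn and Erg. The 2 most abundant markers of the list, the transcription factor Sox18 and the secreted protein Egfl7, overlapped between the groups. Cdh5, the cadherin of endothelial junctions, was at a log2 difference of −0.27. The sum of the 11 pericyte and smooth muscle markers was 149.1 to 159.5 in Control and 132.2 to 141.1 in ISRIB, without overlap. There 7 were lower and 4 higher, with the adhesion protein Mcam at a log2 difference of −0.34. The 4 higher were smooth muscle actin, Acta2, at 0.21, and, named after their values were seen, Tagln (0.26, wholly above Control), Cnn1 (0.21) and Myh11 (0.07). In both lists 0 genes were called by limma, with 5 of 17 and 7 of 11 at an unadjusted p under 0.05, against 16.4% of all genes. The 5 endothelial genes were lower, and of the 7 in the pericyte and smooth muscle list 5 were lower and 2 higher. By voom 0.929% of all genes were called. Of the pericyte list they were Mcam (adjusted p = 0.0428) and, named after their values were seen, Pdgfrb (0.0191), Abcc9 (0.0259) and Cspg4 (0.0447), all lower. Of the endothelial list 0 were called. With the length correction in voom 0.178% of all genes were called, of the pericyte list Pdgfrb (adjusted p = 0.0389). The part these cells have in the Notch values was not tested. Endothelial Gja5 and Vwf were close to 0, at means of 0.0499 and 0.471 FPKM.

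Marker lists of other ovarian cell types were read in the same way. The oocyte markers summed to 1352 to 1540 FPKM in Control and 1504 to 1660 in ISRIB, led by Zp2 and Zp3 of the egg coat. Of the 12, 9 were higher in ISRIB and 3 lay wholly above Control, against 10.8% of all genes. These were Zp3 and, named after their values were seen, Oosp1 and Npm2. The granulosa markers summed to 568.7 to 651.0 and 607.8 to 713.6, led by the transcription factor Foxl2 and the inhibin subunit Inha, with 4 of the 8 tested higher, and Kitl, named after its values were seen, wholly below Control at −0.32. The granulosa genes Fshr and Cyp19a1 were under 1 FPKM on average (0.492 and 0.491), as was theca Cyp17a1 (0.210). The stroma and theca list, led by Col1a1 and Dcn, overlapped in its sum between the groups (786.6 to 846.9 and 783.9 to 906.0). Its gene Pdgfra, named after its values were seen, lay wholly below Control at −0.12. Surface epithelium, led by Krt19 and Upk3b, overlapped in its sum (176.5 to 197.3 and 171.6 to 177.2), but 6 of its 6 tested markers were lower in ISRIB, with a median log2 difference of −0.11 against −0.13 for endothelium. There Lgr5, named after its values were seen, lay wholly below Control at −0.45. The immune list, led by Lyz2 and C1qa, overlapped as well (77.8 to 86.0 and 82.2 to 84.1), with the leukocyte marker Ptprc at 0.480 and the macrophage receptor Csf1r, also named afterwards, wholly below Control at −0.36. By limma 0 genes of these lists were called, and by voom 0.

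The rest of the pathway was read from a list of 72 further genes, 71 of them in the table and 64 tested. By limma with Benjamini-Hochberg adjustment, 0 of the 64 were called, the smallest adjusted p being 0.0987, and 17 had an unadjusted p under 0.05 (26.6%, against 16.4% of all genes), 3 higher and 14 lower. By voom 1 was called, Dtx3, where 0.929% of all genes were, so nothing is read from that count. The list had 40 genes lower and 24 higher in ISRIB, a median of −0.02 against 0.01 over all genes tested, and 18 genes (28.1%) wholly below Control, against 12% of all genes tested. Its median implied length was 4667 bases, against 3548 for all, and its median after the length correction was −0.04.

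Hey2, a target gene of the same family as Hey1 and Heyl, was the pathway gene with the largest positive difference. It had 15.10, 15.68 and 18.63 FPKM in Control and 19.37, 21.82 and 24.62 in ISRIB. All ISRIB libraries were above all Control libraries, opposite in direction to Hey1, and the log2 difference was 0.40 (SE 0.103, limma adjusted p = 0.134, 0.0703 to 0.350 over the alternatives). Hes6 was the other tested gene of this group, and Hes2, Hes3, Hes5 and Hes7 were under 1 FPKM on average (0.00438 to 0.390).

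Among regulators that limit or turn over Notch signals, Dtx3, a Deltex-family ubiquitin ligase, was higher and Aak1, a kinase that binds the endocytic adaptor AP2, lower. Dtx3 had 30.21, 28.30 and 29.91 FPKM in Control and 33.66, 36.44 and 36.28 in ISRIB. Its log2 difference was 0.26 (SE 0.0505, limma adjusted p = 0.0987, 0.0462 by voom, and 0.0941 by voom with the length correction). Aak1 had means of 6.98 ± 0.293 and 6.16 ± 0.0276 FPKM (n = 3 each) and a log2 difference of −0.17 (limma adjusted p = 0.236). Its implied length was 15808 bases, and the difference was −0.09 after the length correction. Nrarp, a feedback inhibitor that Notch itself induces, was named after its values were seen. It had 10.39, 12.85 and 9.26 FPKM in Control and 8.06, 9.65 and 7.81 in ISRIB, a log2 difference of −0.33 (SE 0.124, limma adjusted p = 0.251) with overlapping groups. An antisense gene covers 79.4% of its exonic bases, so its value is uncertain.

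In the nuclear complex, Rbpj, Maml1 and Maml3 are the DNA-binding protein and the co-activators, and 0 of 8 tested genes were called. The histone acetyltransferase Ep300 had the smallest p among those lower (log2 difference −0.16, limma adjusted p = 0.162, and −0.11 after the length correction), and the nuclear cofactor Snw1 was at 0.02, with 44.2% of its exonic bases shared with Slirp on the opposite strand. Of 13 co-repressors, 6 lay wholly below Control, led by Spen, the scaffold that holds RBPJ target genes silent, at −0.24 (limma adjusted p = 0.163), and Hdac1 was at 0.11, or 0.03 without ISRIB replicate 1.

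The enzymes that ready and cut the receptors also had 0 calls. Furin, the protease that makes the first cut of the receptor in the Golgi, had 40.1 ± 2.30 FPKM in Control and 34.98 ± 0.703 in ISRIB (n = 3 each), a log2 difference of −0.19 (limma adjusted p = 0.142). Adam10, which makes the cut after ligand binding, had 47.6 ± 0.912 and 43.4 ± 2.11 FPKM, a log2 difference of −0.13 (limma adjusted p = 0.239). Both had all ISRIB libraries below Control. The other cleavage genes, Adam17 and the gamma-secretase subunits, overlapped between the groups and lay between −0.04 and 0.05 (Aph1c). Poglut2, a glucosyltransferase that modifies Notch repeats, was at 0.10, or 0.05 after TPM rescaling.

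Of the other ligands, Dlk1, a noncanonical Delta-like protein abundant in fetal tissues, had 140.3 ± 3.61 FPKM in Control and 124.7 ± 5.75 in ISRIB (n = 3 each), with no overlap and a log2 difference of −0.17 (limma adjusted p = 0.145). Mfap5, a matrix protein that can bind Notch, was at 0.05 and a level near 1 FPKM. Genes for ligand endocytosis overlapped between the groups, with Mib2 at 0.05 and Neurl1a at −0.05.

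**Figure D5:**
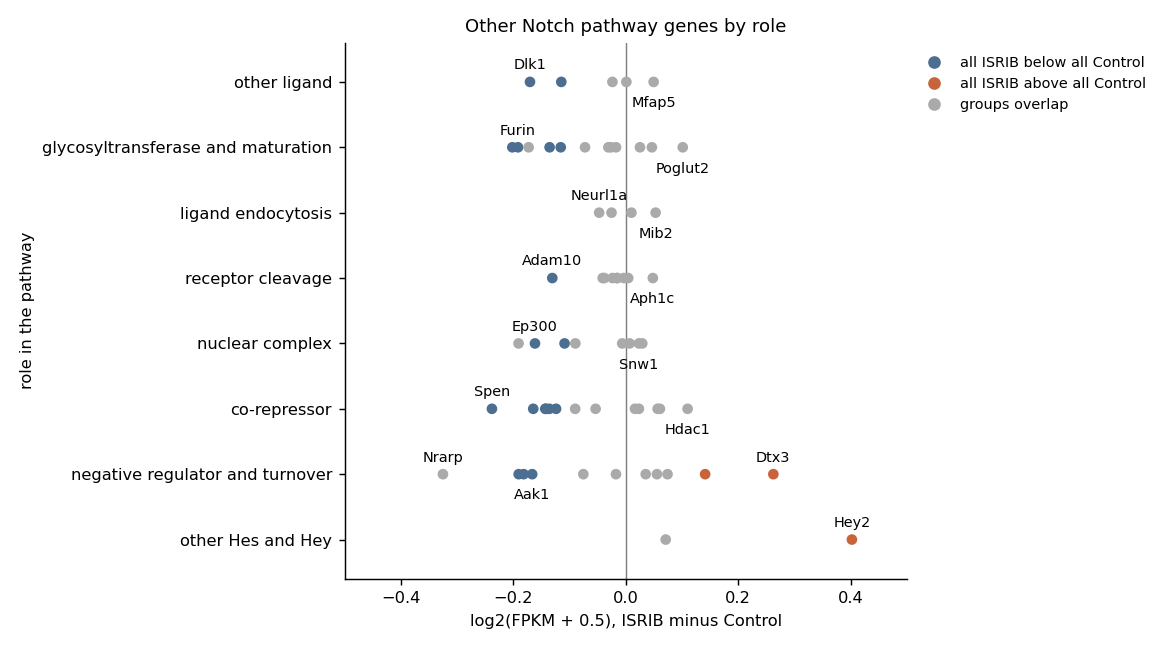
Log2(FPKM + 0.5) difference, ISRIB minus Control, of the 64 other Notch pathway genes tested, 1 point per gene in rows by role; colour gives whether the 3 ISRIB libraries lay all below, all above or within the range of the 3 Control libraries. Hey2 and Dtx3 lie farthest to the right, Nrarp farthest to the left, and 18 genes lay wholly below Control.

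Parts of 4 members share exons with other genes, whose reads may not be told apart. Noncoding genes on the opposite strand cover part of Notch1 (0610009E02Rik 7.5% of its exonic bases, Gm13568 2.91%), 6.03% of the exonic bases of Notch3 and 5.56% of those of Dll4, and an untyped gene model on the same strand covers 5.02% of those of Notch2. The 2 of these that are in the table had means of 0.552 FPKM (0610009E02Rik, at Notch1) and 1.01 FPKM (Gm14207, at Dll4).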

How the data were processed

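RNA of 6 cultured mouse ovary libraries, 3 Control and 3 ISRIB by their titles, was sequenced. The deposited values are FPKM, computed by the authors, with 1 column per library. Per the submitters' processing notes, the tools were HISAT2, HTSeq, fastp, DESeq2 and R 3.2.0 and the build mm10, with no roles stated. Annotation and strand setting: not given in the sources used here. Whole reads were worked back from the FPKM (all 26329 genes whole within 0.01 read) and summed to 34474821 to 38002135 per library.

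Log2(FPKM + 0.5) was fitted with limma 3.58.1 in R 4.3.3 (2 groups, intensity trend, two-sided, Benjamini-Hochberg) on the 12922 genes averaging 1 FPKM or more. Fold changes on this scale understate those of low genes. The fit was tested on simulated data. The members and lists were chosen with earlier results of these data known. Named were all members and, for each role in the pathway list, the gene with the smallest p in each direction, the 5 genes most correlated with the members, excluding predicted or clone names, and the 2 most abundant genes of each marker list; other names were chosen after their values were seen, as were the markers under 1 FPKM and Adam17. Gene positions and promoters are RefSeq GRCm38.p6 and exon overlaps GENCODE M21. Tables and figures used Python 3.11.15, pandas 2.3.3, scipy 1.17.1 and matplotlib 3.10.9. Alternatives were other pseudocounts, filters and scalings, limma options, voom, a length correction (loess, span 0.5), a replicate block and leaving out each library.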

Additional observations from a re-analysis of the deposited data

How the results depend on the processing

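The 10 Notch genes were recomputed under 19 alternatives, and 189 of their 190 values were below 0. The median of the members ran from −0.21 to −0.12. The number of members without overlap was 8 after TPM rescaling, where 21.0% of all genes lay wholly below Control. It was 4 to 8 when single libraries were left out (8 without Control replicate 1, 7 without ISRIB replicate 2), which can only keep or raise it. The share of all genes in those fits is not given, so nothing is read from the rise. Members called numbered 2 by voom and 1 by voom with the length correction, and 0 under every other alternative. Over all genes 120 were called by voom, 23 by voom with the length correction, 8 with a mean FPKM of at least 5 and 11 with the replicate block. Of the other pathway genes 1 was called by voom, where 0.929% of all genes were, and 0 by voom with the length correction. Their median was −0.0774 after TPM rescaling, −0.0448 after quantile normalization and −0.0489 to −0.0211 when single libraries were left out. Signs turned for Mfap5 (−0.013 after the length correction, −0.18 to 0.27 without single libraries), Snw1 (−0.0292 after TPM rescaling, −0.0607 after the length correction, −0.0639 by voom with it, −0.0192 to 0.0703 without single libraries), Neurl1a (−0.11 to 0.0129) and Aph1c (−0.013 to 0.10, both without single libraries). The cause of these changes was not tested. The labels do not say whether replicate numbers pair the libraries. Correlations of same-numbered deviations from the group means were −0.19, −0.09 and 0.19, too few values to decide it. With the replicate block 0 members were called. Depth gave the members a counting error of 1.02% to 2.43% per library, beside an SD between replicates of 1.02% to 12.3% of the mean.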

Other observations

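The ratio of Hey2 to Hey1 within a library, examined after their opposite differences were seen, was 0.689, 0.607 and 0.782 in Control and 0.919, 0.968 and 1.18 in ISRIB. The groups did not overlap, and with 3 against 3 libraries an exact permutation test cannot go below p = 0.10, so none was run. The ratio of Hes1 to Hey1 overlapped, at 1.84 to 2 and 1.93 to 2.16, as did that of Heyl to Hey1. The pericyte and smooth muscle markers also parted in direction within their own list: Abcc9, a channel subunit of pericytes named after its values were seen, averaged 20.3 ± 0.437 FPKM with DMSO and 14.9 ± 1.65 with ISRIB (log2 difference −0.44). Acta2, smooth muscle actin, averaged 28.2 ± 3.44 and 32.5 ± 2.08 (log2 difference 0.21, n = 3 each). Neither was called by limma, and by voom Abcc9 was called (adjusted p = 0.0259) and Acta2 was not (adjusted p = 0.236).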
